A study of Tachysurus fulvidraco x Tachysurus vachelli with 6 samples.

Results

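The genes described are those for protein processing in the endoplasmic reticulum (ER), the compartment where secreted and membrane proteins enter the secretory route, fold, receive their first sugars and are checked before export. They are the 334 of 28288 genes in the deposited table whose pathway column names protein processing in the ER, after leaving out rows that also carry the circadian rhythm or TGF-beta pathway and rows described as heat shock proteins or dnaJ homologs. The livers were those of a hybrid catfish, with Tachysurus fulvidraco and Pseudobagrus vachellii as the parent species, kept for 8 weeks on feed with 4 g/kg Acanthopanax senticosus (T_liver) or 0 g/kg (C_liver), with 3 libraries per group. A. senticosus is a shrub also called Siberian ginseng, used here as a feed additive. All fish were starved for a day before their livers were taken, and the study mixed RNA of each group before library preparation without stating how many fish stand behind 1 library. In what follows n therefore counts libraries, and P values set the group difference against the spread between libraries, which may be partly or wholly technical.

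A liver cell secretes most plasma proteins and so carries a large rough ER. Nascent chains pass the Sec61 channel, are glycosylated by the oligosaccharyltransferase, and fold with the help of BiP, GRP94, the lectins calnexin and calreticulin and the protein disulfide isomerases. Folded cargo leaves in COPII vesicles, while proteins that fail to fold are drawn back to the cytosol, ubiquitinated and degraded, a route called ER-associated degradation (ERAD). When unfolded proteins accumulate, the sensors IRE1, PERK and ATF6 raise the transcription of chaperones and ERAD genes, the unfolded protein response.

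Of the 334 genes, 221 had a mean FPKM (the deposited values, fragments scaled by transcript length and by library size) of at least 1 over the 6 libraries and were tested, 90 had a count but a lower mean, and 23 had no count in any library. The symbol or description named a protein of this pathway, or a relative of one by family, for 217 genes, of which 169 were tested. The relatives include proteases such as capn10. The other 117, of which 52 were tested, name another protein or none and belong to the pathway only through the orthology entry in the table. Of 35 genes with the entry of the ERAD scaffold SEL1L, 31 are described as verrucotoxin or neoverrucotoxin, toxin subunits of stonefish, and 18 of these lie on scaffold NW_020848117.1. Only 1 of the 31 reached a mean FPKM of 1, 20 had a lower mean, and 10 had no count. The calpain proteases were a second repeated group, with 25 members and 8 of them tested. A stretch of scaffold NW_020848000.1 held 10 calpain genes, of which 2 were tested. Repeated copies of this kind can share reads, and the treatment of reads with several matches is not given in the sources used here. The members lie on 142 scaffolds, and 200 of them were in no other pathway, while 31 were also annotated to ubiquitin mediated proteolysis and 30 to N-glycan biosynthesis.

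The counts on genes summed to between 44153673 and 51459627 per library. Levels are given as CPM (counts divided by the TMM-scaled library size), and as FPKM where genes are compared with each other. C_liver replicate 3 and T_liver replicate 1 stood apart, with Pearson correlations of log2 CPM over the tested genes of 0.837 to 0.885 and 0.852 to 0.884 with the other libraries, where the remaining 4 libraries correlated at 0.891 to 0.919 with each other. The members took 1.31%, 1.08% and 1.08% of the counts in T_liver replicates 1, 2 and 3, against 1.12%, 1.16% and 1.36% in the C_liver replicates. Hepatocyte markers were at a high level in every library (34446 to 72538 CPM summed over 7 genes in T_liver, 32980 to 37991 CPM in C_liver). Exocrine pancreas markers (30 genes, 5 of them at 0 in every library) summed to 366 to 1172 CPM in T_liver and 81.8 to 417 CPM in C_liver, and 21 of the 23 tested were higher in T_liver. Within the groups, these markers were highest in T_liver replicate 1 (1172 CPM) and T_liver replicate 3 (910 CPM), and in C_liver replicate 3 (417 CPM). Red blood cell markers reached 2800 CPM in T_liver replicate 2 and 4402 CPM in C_liver replicate 3, and were between 469 and 1122 CPM in the other 4 libraries. In such bulk samples a difference in cell makeup and a difference in transcripts per cell cannot be told apart.

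The members as a group did not stand out between the diets. With the thresholds of the study, DE genes are those whose log2 fold change reached 1 in either direction with an unadjusted P below 0.05, here from edgeR's quasi-likelihood test. None of the 221 tested members (0%) was a DE gene at a higher level in T_liver and 3 (1.36%) were at a lower level, where 1.49% of all 11521 tested genes were called higher, 1.61% lower and 3.11% in either direction. Without the fold change threshold, 11 members (4.98%) had an unadjusted P under 0.05, 5 higher and 6 lower in T_liver, against 6.64% of all tested genes. With P values of edgeR's quasi-likelihood test adjusted by Benjamini-Hochberg, 0 members and 0% of all tested genes passed 0.05, and the smallest adjusted P of a member was 0.676. With DESeq2, 0 members had an adjusted P under 0.05, where 38 of all tested genes (0.330%) did. By the fold change and unadjusted P thresholds DESeq2 called 5 members (2.26%), the same 3 and 2 more, 1 higher and 1 lower in T_liver, against 4.52% of all tested genes. The 3 T_liver libraries lay above the 3 C_liver libraries in 9 members (4.07%) and below them in 14 (6.33%), against 5.96% and 7.10% of all tested genes. These shares of the members are near or under the background.

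The differences were also small in size. The median log2 fold change of the members was -0.02, against -0.0047 over all tested genes, with an interquartile range of -0.27 to 0.22. In 173 of 221 members the absolute log2 fold change was under 0.5, and the median standard error of a member was 0.31. A positive log2 fold change was found in 102 members (46.2%), against 49.6% of all tested genes. This share moved with single libraries, to 60.2% (median 0.087) without C_liver replicate 3 and to 37.6% (median -0.11) without T_liver replicate 1.

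**Figure D1:**
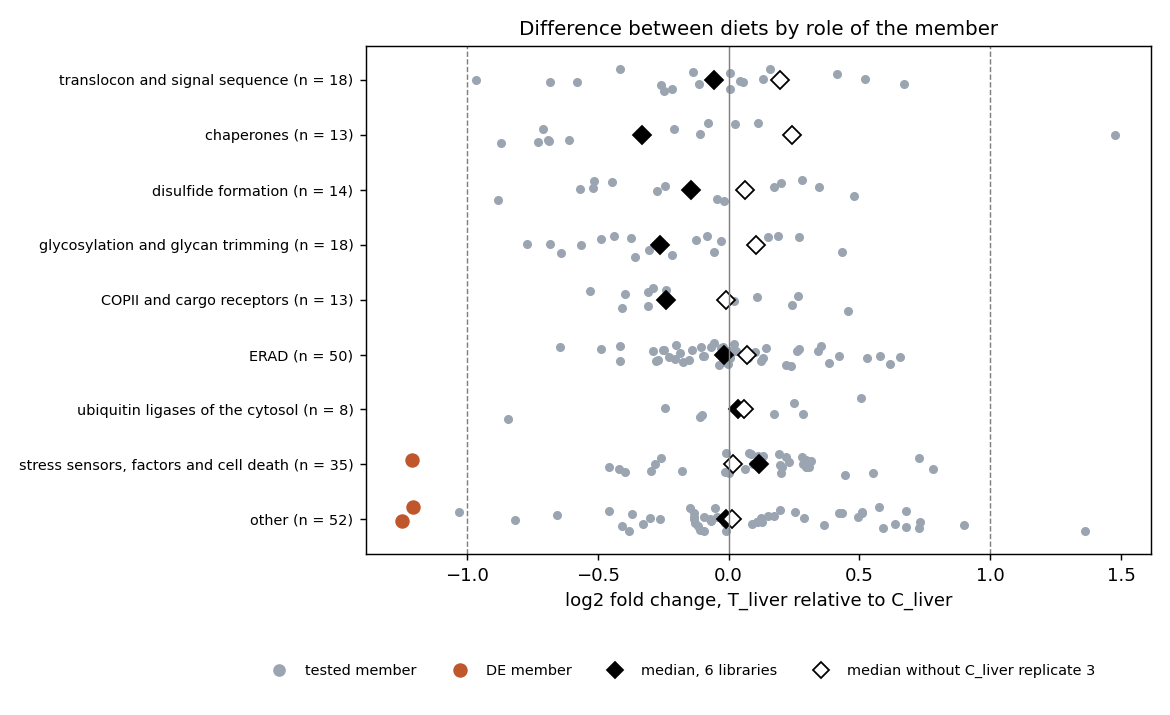
The horizontal axis gives the log2 fold change of T_liver relative to C_liver, and each row is a role with the number of tested members. Grey points are single members, orange points the 3 DE members, dashed lines the fold change threshold, filled diamonds the median over the 6 libraries and open diamonds the median without C_liver replicate 3. The filled diamond of the chaperones lies at -0.33 and the open one at 0.24, while both diamonds of the ERAD genes lie within 0.1 of 0.

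The translocon, through which chains enter the ER, held the genes with the highest levels per length. The 18 members of this role, all tested, summed to 1869 ± 384 FPKM in T_liver and 1907 ± 194 FPKM in C_liver (SD, n = 3 each), of 5825 ± 789 and 6213 ± 678 FPKM over all members. The translocon-associated protein, a complex beside the Sec61 channel that helps certain chains to enter, supplied 3 of the 8 members with the highest mean FPKM. Its delta subunit ssr4 (LOC113658247) had a mean of 514 FPKM, its beta subunit ssr2 413 FPKM and its gamma subunit ssr3 241 FPKM over the 6 libraries. The channel subunit sec61b had a mean of 275 FPKM.

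No translocon gene was a DE gene (0%, against 3.11% of all tested genes). By sign 9 were higher and 9 lower in T_liver (median log2 fold change -0.05). This split moved with single libraries, to 16 higher and 2 lower (median 0.20) without C_liver replicate 3 and to 4 higher and 14 lower (median -0.24) without C_liver replicate 2. T_liver lay above C_liver without overlap in 1 of the 18 (5.56%), against 5.96% of all tested genes, and below it in 0. This gene was sec62, a partner of the channel that takes up chains after their synthesis. It had 61.0, 39.7 and 58.6 CPM in T_liver replicates 1, 2 and 3, against 32.6, 36.0 and 31.6 CPM in the C_liver replicates. Every T_liver library lay above every C_liver library, and the log2 fold change was 0.67 with a standard error of 0.24 (edgeR's quasi-likelihood test, unadjusted P 0.0277, adjusted P 0.676), below the fold change threshold. In the genes of the channel itself the groups overlapped. The 2 genes of its alpha subunit had 92.2, 59.8 and 36.2 CPM (LOC113640740) and 167, 98.6 and 71.6 CPM (LOC113642878) in T_liver replicates 1, 2 and 3, against 49.6, 36.4 and 102 CPM and 108, 101 and 155 CPM in the C_liver replicates. T_liver replicate 1 and C_liver replicate 3 were therefore the 2 highest libraries for LOC113640740 and for LOC113642878.

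This order of libraries recurred through the genes of the secretory route. C_liver replicate 3 and T_liver replicate 1 were the 2 highest libraries in 66 of 221 members (29.9%), against 9.19% of all tested genes. The count was 12 of 18 in the translocon, 8 of 13 among the COPII genes, 8 of 18 among the glycosylation genes, 6 of 14 among the disulfide genes and 6 of 13 among the chaperones, but 12 of 50 among the ERAD genes and 6 of 35 among the sensors and cell death genes. The libraries were singled out after their values were seen, so these counts are a description with no test. T_liver replicate 3 was the lowest library in 12 of 18 translocon members, against 60 of all 221 tested members and 2136 of all 11521 tested genes.

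**Figure D2:**
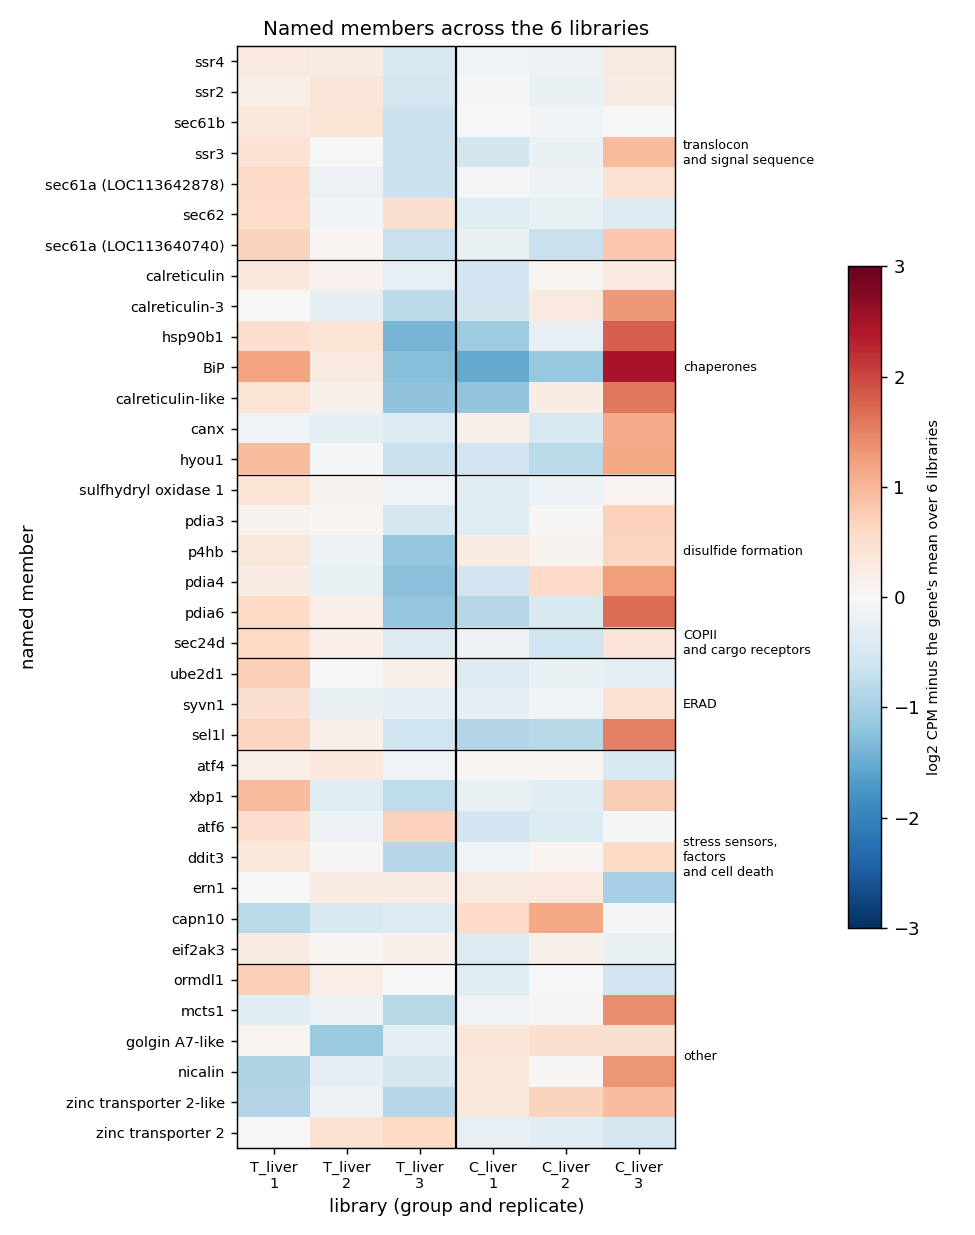
Each row is a named member, ordered by role, each column a library with T_liver on the left, and the colour gives log2 CPM minus the gene's mean over the 6 libraries. C_liver replicate 3 is red in most rows of the chaperones and disulfide isomerases, darkest for BiP and pale for pdia3 and p4hb. In these rows T_liver replicate 3 and C_liver replicate 1 are mostly blue. The rows of the sensors are paler than that of BiP.

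The chaperones, a role that also holds cytosolic genes such as bag1, had the widest median spread of the roles. BiP (LOC113636550, scaffold NW_020848212.1, 788930 to 793044, plus strand), the Hsp70 of the ER lumen and the textbook readout of the unfolded protein response, had 286, 155 and 51.8 CPM in T_liver replicates 1, 2 and 3, against 43.4, 57.8 and 702 CPM in the C_liver replicates. C_liver replicate 3 was thus 16.2 times C_liver replicate 1 within the same diet, and the 3 T_liver values lay between them. The log2 fold change was -0.71 with a standard error of 1.10 (edgeR's quasi-likelihood test, unadjusted P 0.541, adjusted P 0.874). With C_liver replicate 3 left out the sign turned, and BiP was a DE gene at a higher level in T_liver (log2 fold change 1.70, unadjusted P 0.0478 in edgeR's quasi-likelihood test). With all 6 libraries kept it also turned, to 0.10 and 0.11 with limma on log2(FPKM + 1) and log2(FPKM + 0.1). With the replicate number as a block it was 0.59. The direction of BiP between the diets therefore depends on 1 library and also on the scale and model used. Other folding genes gained a call in the opposite direction when another library was left out. Without C_liver replicate 1, the calreticulin gene LOC113651148 (log2 fold change -1.21, unadjusted P 0.03) and the isomerase pdia4 (-1.23, unadjusted P 0.0441) were DE genes at a lower level in T_liver by edgeR's quasi-likelihood test. With any 1 library left out their log2 fold changes stayed negative, between -1.21 and -0.25 for LOC113651148 and between -1.23 and -0.39 for pdia4, as did that of calnexin (-0.99 to -0.13).

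GRP94 (hsp90b1), the Hsp90 of the ER, had 261, 244 and 69.0 CPM in T_liver replicates 1, 2 and 3, against 86.5, 153 and 637 CPM in the C_liver replicates. Its log2 fold change was -0.61 ± 0.80 (SE), and 0.68 without C_liver replicate 3. The exchange factor of BiP, hyou1, had 55.7, 28.4 and 18.1 CPM in T_liver, against 19.5, 16.7 and 64.4 CPM in C_liver (log2 fold change 0.02 ± 0.62, SE). In both genes the highest library was C_liver replicate 3 and the next T_liver replicate 1.

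The lectin chaperones, which hold glycoproteins while they fold, were less uniform. Calnexin (canx) had 18.6, 16.6 and 15.3 CPM in T_liver replicates 1, 2 and 3, against 22.4, 14.5 and 44.3 CPM in the C_liver replicates. Of 3 calreticulin genes, LOC113655795 had the highest level (mean 218 FPKM) and differed least, with 325 to 486 CPM in T_liver and 259 to 477 CPM in C_liver. The second, LOC113651148, had 111 to 194 CPM in T_liver and 131 to 474 CPM in C_liver, and the third, LOC113645299, 34.3 to 104 CPM in T_liver and 35.0 to 237 CPM in C_liver. The groups overlapped in calnexin and in the 3 calreticulin genes. No chaperone gene was a DE gene in either direction (0 of 13, against 3.11% of all tested genes). By edgeR's quasi-likelihood test 0 had an unadjusted P under 0.05, and 0 were called by DESeq2. By sign 10 of the 13 were lower in T_liver (median -0.33), and without C_liver replicate 3 only 4 were (median 0.24). The cytosolic cochaperone bag1 was the only one of the 13 whose groups did not overlap (7.69%, against 7.10% of all tested genes with T_liver below). It had 3.68, 6.94 and 5.41 CPM in T_liver replicates 1, 2 and 3, against 7.10, 8.57 and 10.9 CPM in the C_liver replicates. The small heat shock protein gene hspb6 had the highest log2 fold change of all tested members (1.47), but its levels were low and overlapped, with 3.76, 2.44 and 0.206 CPM in T_liver, against 0.810, 1.19 and 0.280 CPM in C_liver.

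**Figure D3:**
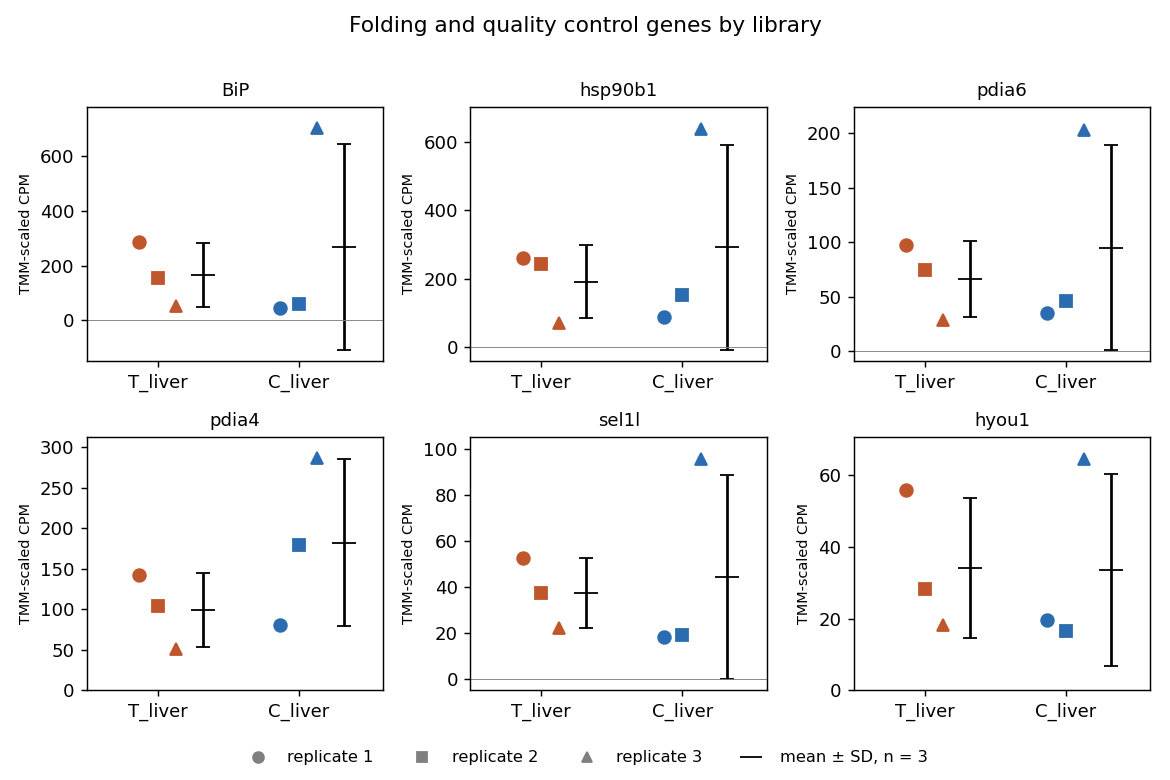
The vertical axis of each panel gives TMM-scaled CPM, points are libraries with a shape per replicate number, and the bar is the mean ± SD of 3 libraries. In the panels of BiP, hsp90b1, pdia6, pdia4, sel1l and hyou1 the highest point is C_liver replicate 3 (702 CPM for BiP), and the SD bar of C_liver is wider than that of T_liver in each panel.

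The disulfide isomerases, which form and rearrange disulfide bonds in new proteins, followed the chaperones. Pdia6 had 97.1, 74.2 and 28.7 CPM in T_liver replicates 1, 2 and 3, against 35.5, 46.5 and 203 CPM in the C_liver replicates (log2 fold change -0.51 ± 0.73, SE). Pdia4 had 142, 104 and 50.9 CPM in T_liver, against 80.7, 180 and 287 CPM in C_liver (-0.88 ± 0.54, SE). In both the groups overlapped, and C_liver replicate 3 was at the top and T_liver replicate 3 at the bottom. Pdia3, the partner of calnexin and calreticulin, was at a mean of 299 FPKM and had 685, 662 and 438 CPM in T_liver, against 494, 648 and 1017 CPM in C_liver. P4hb, the founding isomerase, had 382, 264 and 134 CPM in T_liver, against 359, 323 and 474 CPM in C_liver.

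A different picture was found for sulfhydryl oxidase 1 (LOC113656905), an enzyme that makes disulfide bonds further along the secretory route and was the third most abundant member at 392 FPKM. It had 1223, 1005 and 864 CPM in T_liver replicates 1, 2 and 3, against 751, 819 and 974 CPM in the C_liver replicates, a log2 fold change of 0.28 ± 0.27 (SE). Of the 14 tested genes of the role, 5 were higher and 9 lower in T_liver by sign (median -0.14). None was a DE gene (0%, against 3.11% of all tested genes). None had groups that did not overlap (0%, against 13.1% of all tested genes in either direction). Leaving out C_liver replicate 3 gave 9 higher (median 0.064).

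The glycosylation genes were lower in T_liver by sign in 14 of 18 cases (median -0.26). In 14 of the 18 (77.8%) the highest library was C_liver replicate 3, against 37.6% of all tested members and 25.2% of all tested genes. The oligosaccharyltransferase transfers the preformed sugar to the nascent chain. Its subunit ddost had 174, 125 and 88.0 CPM in T_liver replicates 1, 2 and 3, against 118, 131 and 372 CPM in the C_liver replicates, and its catalytic subunit stt3a had 267, 168 and 140 CPM, against 179, 177 and 381 CPM. Its small subunit dad1 had 57.9, 44.6 and 38.8 CPM in T_liver, against 56.2, 70.4 and 114 CPM in C_liver, with a log2 fold change of -0.77 (edgeR's quasi-likelihood test, unadjusted P 0.0511, adjusted P 0.676). In all 3 the groups overlapped. Among the trimming enzymes, a gene of glucosidase II alpha (LOC113634146), which removes glucose from the attached sugar, had groups that did not overlap, with 24.1, 21.6 and 20.5 CPM in T_liver, against 26.7, 29.3 and 36.8 CPM in C_liver (log2 fold change -0.49). It is 1 of 2 of the 18 (11.1%) with T_liver below without overlap, against 7.10% of all tested genes. T_liver lay above in 0, against 5.96%. When C_liver replicate 3 was left out, 11 of the 18 were higher in T_liver (median 0.10).

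Of the 13 tested genes for COPII vesicles and cargo receptors, 5 were higher and 8 lower in T_liver by sign (median -0.24). None was a DE gene (0%, against 3.11% of all tested genes). The median was -0.011 without C_liver replicate 3 and -0.36 without T_liver replicate 1. The cargo receptor lman1, which carries glycoproteins such as clotting factors in mammals, had 187, 94.0 and 61.9 CPM in T_liver replicates 1, 2 and 3, against 113, 129 and 208 CPM in the C_liver replicates. Again C_liver replicate 3 and T_liver replicate 1 were the 2 highest libraries. The outer coat gene sec31a had the opposite sign, with 59.3, 61.1 and 76.6 CPM in T_liver, against 49.4, 42.6 and 51.7 CPM in C_liver, and its groups did not overlap (log2 fold change 0.46, edgeR's quasi-likelihood test, unadjusted P 0.0825, adjusted P 0.676). The receptor lman2 had 19.8, 26.9 and 21.1 CPM in T_liver, against 29.4, 32.5 and 35.8 CPM in C_liver, also without overlap (log2 fold change -0.53, edgeR's quasi-likelihood test, unadjusted P 0.0499, adjusted P 0.676). Sec31a was the only 1 of the 13 with T_liver above (7.69%, against 5.96% of all tested genes). Lman2 was the only 1 with T_liver below (7.69%, against 7.10%). The coat gene sec24d (LOC113657455) had 23.6 to 47.2 CPM in T_liver and 20.8 to 40.7 CPM in C_liver. The sec23b gene of the naming rule was matched by no member.

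The ERAD genes and the 8 ubiquitin ligase genes of the cytosol were the steadiest roles. Over the 50 tested members the median SD between libraries of the same diet, on the log2(CPM + 0.5) scale, was 0.28, against 0.38 over all tested genes, while it was 0.57 in the chaperones, 0.49 in the translocon and 0.47 in the disulfide genes. The cytosolic ubiquitin ligase genes were close to the ERAD genes, at 0.29. The highest library was more than 2 times the lowest in 17 of 50 ERAD genes (34.0%) and in 3 of 8 ubiquitin ligase genes (37.5%). It was so in 10 of 13 chaperones (76.9%) and in 57.1% of all tested genes. The ATPase vcp, which pulls proteins out of the ER membrane, had 137, 100 and 113 CPM in T_liver replicates 1, 2 and 3, against 107, 85.6 and 157 CPM in the C_liver replicates. Its cofactor ufd1 had 36.6 to 48.3 CPM in T_liver and 41.1 to 46.3 CPM in C_liver, and the ubiquitin-conjugating enzyme ube2g2 had 38.0 to 46.5 CPM in T_liver and 42.7 to 50.9 CPM in C_liver.

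**Figure D4:**
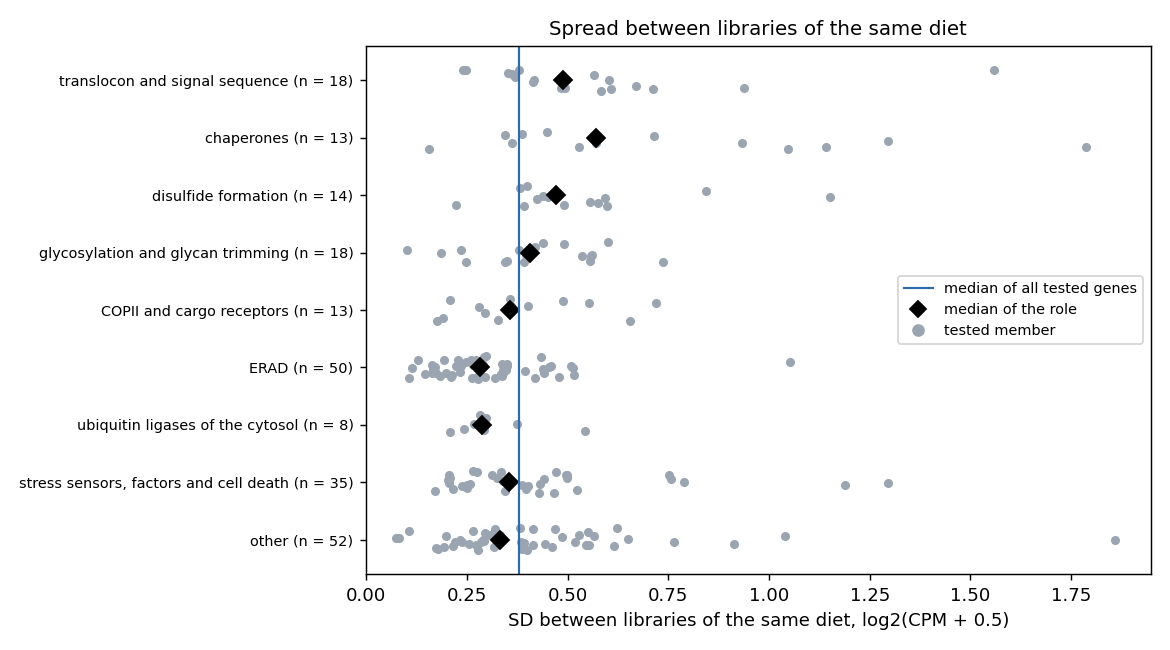
The horizontal axis gives the SD between libraries of the same diet on the log2(CPM + 0.5) scale, pooled over T_liver and C_liver, and each point is a tested member. Black diamonds are the medians per role and the blue line the median of all tested genes (0.38). By median, the chaperones lie furthest to the right and the ERAD genes and the ubiquitin ligases of the cytosol at the left, with sel1l as the single ERAD point above 1.

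The scaffold sel1l (LOC113643346) was the exception among the ERAD genes. It had 52.7, 37.2 and 22.1 CPM in T_liver replicates 1, 2 and 3, against 18.1, 18.9 and 95.7 CPM in the C_liver replicates, with C_liver replicate 3 highest and T_liver replicates 1 and 2 next, as in BiP. Its log2 fold change was -0.24 ± 0.69 (SE). On the other 5 libraries, without C_liver replicate 3, it was 1.01 and sel1l was a DE gene at a higher level in T_liver (unadjusted P 0.0382 in edgeR's quasi-likelihood test). The ubiquitin ligase of the same complex, syvn1, had 35.0, 21.6 and 20.6 CPM in T_liver, against 20.4, 23.2 and 33.9 CPM in C_liver (-0.0033 ± 0.31, SE).

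By sign, 22 ERAD genes were higher and 28 lower in T_liver (median -0.02), with 32 higher and 18 lower when C_liver replicate 3 was left out and 16 higher and 34 lower when T_liver replicate 1 was. The T_liver libraries lay above the C_liver libraries in 4 of the 50 (8%) and below them in 2 (4%), against 5.96% and 7.10% of all tested genes. Among those above, the ubiquitin-conjugating enzyme ube2d1 (LOC113649379) had 22.3, 13.8 and 15.1 CPM in T_liver, against 10.5, 11.8 and 11.1 CPM in C_liver (log2 fold change 0.62 ± 0.26, SE, edgeR's quasi-likelihood test, unadjusted P 0.0461, adjusted P 0.676). With any 1 library left out the log2 fold change lay between 0.39 and 0.76. In these fits the unadjusted P of edgeR's quasi-likelihood test ran from 0.0290 (without T_liver replicate 2) to 0.159 (without T_liver replicate 1). DESeq2 on the 6 libraries gave ube2d1 an unadjusted P of 0.0503. The ligase march8 was placed in this role by family, beside march6, and its own part in ERAD was not examined. It had 20.1, 17.0 and 21.8 CPM in T_liver, against 26.8, 27.7 and 37.4 CPM in C_liver (log2 fold change -0.64, edgeR's quasi-likelihood test, unadjusted P 0.0292, adjusted P 0.676). Ube2d1 and march8 were both under the fold change threshold. Of the 8 ubiquitin ligase genes of the cytosol 4 were higher and 4 lower in T_liver, with a median of 0.04.

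Of the 35 tested sensors, factors and cell death genes, 25 (71.4%) were higher in T_liver by sign (median 0.11), against 49.6% of all tested genes. The role held 1 DE gene (2.86%), at a lower level, where 1.61% of all tested genes were called lower. With C_liver replicate 3 left out, 19 of the 35 were higher (median 0.02). The sensor atf6, an ER membrane protein whose transcription factor part is released by proteolysis, had 41.9, 26.5 and 47.3 CPM in T_liver replicates 1, 2 and 3, against 19.8, 22.1 and 28.0 CPM in the C_liver replicates. The groups overlapped only in that T_liver replicate 2 lay under C_liver replicate 3, and the log2 fold change was 0.73 ± 0.29 (SE, edgeR's quasi-likelihood test, unadjusted P 0.0377, adjusted P 0.676). It stayed between 0.55 and 0.95 with any 1 library left out, below the threshold. In these fits the unadjusted P of edgeR's quasi-likelihood test ran from 0.0112 (without T_liver replicate 2) to 0.125 (without T_liver replicate 3). Atf6 overlaps a gene on the opposite strand by 353 bases, and whether the counting used strand is not given in the sources used here.

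Like atf6, the other sensors were not DE genes. IRE1 (ern1, LOC113639477) had 38.3, 45.4 and 44.7 CPM in T_liver replicates 1, 2 and 3, against 46.0, 46.7 and 19.1 CPM in the C_liver replicates. C_liver replicate 3, where BiP was highest, had the lowest level of this sensor. PERK (eif2ak3) had 14.0, 12.4 and 13.1 CPM in T_liver, against 8.91, 13.2 and 10.4 CPM in C_liver (log2 fold change 0.28 ± 0.24, SE). Among the factors downstream, xbp1, whose transcript IRE1 splices, had 308, 124 and 94.4 CPM in T_liver, against 137, 129 and 266 CPM in C_liver (-0.02 ± 0.52, SE). The counts are per gene and do not separate the spliced form. Atf4, which PERK signalling raises by translation, was among the 8 most abundant members (255 FPKM) and had 545, 603 and 443 CPM in T_liver, against 502, 510 and 354 CPM in C_liver. Ddit3, the death-linked factor CHOP, had 25.2, 20.9 and 11.2 CPM in T_liver, against 18.5, 21.2 and 30.7 CPM in C_liver (-0.30 ± 0.36, SE).

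The DE gene of this role was capn10 (scaffold NW_020848380.1, 32641 to 47776, plus strand), a calpain protease that carries the orthology entry of calpain-1. It fell to 4.29, 5.39 and 5.71 CPM in T_liver replicates 1, 2 and 3, against 11.3, 16.9 and 7.35 CPM in the C_liver replicates. The groups did not overlap, and the log2 fold change was -1.21 ± 0.35 (SE, edgeR's quasi-likelihood test, unadjusted P 0.0094, adjusted P 0.676). Without C_liver replicate 2 it was -0.86 and no longer past the threshold. In this role T_liver lay below C_liver without overlap in 2 of 35 (5.71%), against 7.10% of all tested genes. It lay above in 1 (2.86%), against 5.96%.

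The remaining DE members, both at lower levels, are described as proteins outside the pathway. Nicalin (LOC113650340, scaffold NW_020847763.1, 13121210 to 13130875, minus strand), a membrane protein of the ER in mammals, carries an orthology entry of cytosolic heat shock proteins. It had 7.01, 10.8 and 9.18 CPM in T_liver replicates 1, 2 and 3, against 16.1, 13.3 and 32.8 CPM in the C_liver replicates (log2 fold change -1.20 ± 0.39, SE, edgeR's quasi-likelihood test, unadjusted P 0.0162, adjusted P 0.676). Without C_liver replicate 3 the log2 fold change was -0.70, and nicalin was not a DE gene, nor without T_liver replicate 1 (unadjusted P 0.0568 in edgeR's quasi-likelihood test). A gene described as zinc transporter 2-like (LOC113659434, scaffold NW_020848035.1, 7861370 to 7863892, plus strand) carries the entry of the glucosyltransferase that reglucosylates unfolded glycoproteins. It had 1.18, 1.95 and 1.22 CPM in T_liver, against 2.71, 3.45 and 4.17 CPM in C_liver (log2 fold change -1.25 ± 0.41, SE, edgeR's quasi-likelihood test, unadjusted P 0.0171, adjusted P 0.676). Without T_liver replicate 3 and without C_liver replicate 3 its unadjusted P in edgeR's quasi-likelihood test was 0.0512 and 0.0507. Exocrine pancreas markers were higher in T_liver (366 to 1172 CPM, against 81.8 to 417 CPM in C_liver), and their part in these 3 differences was not tested. In the exact 2-sided permutation test of their CPM, capn10, nicalin and the zinc transporter 2-like gene each had 0.1, the smallest p that 3 libraries against 3 allow. Groups that do not overlap always give this value, so it adds no support for a difference.

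**Figure D5:**
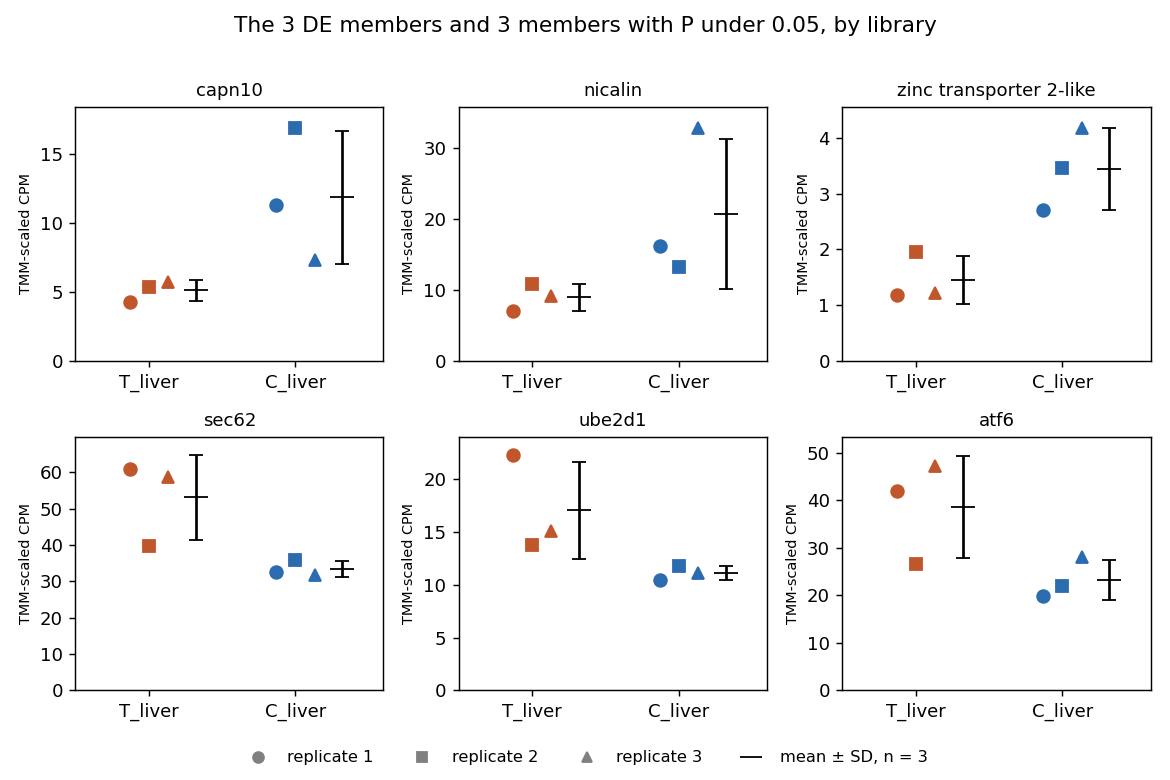
The vertical axis of each panel gives TMM-scaled CPM from 0, points are libraries with a shape per replicate number, and the bar is the mean ± SD of 3 libraries. The T_liver points lie below the C_liver points for capn10, nicalin and the zinc transporter 2-like gene and above them for sec62 and ube2d1, while for atf6 the lowest T_liver point (26.5 CPM) lies under the highest C_liver point (28.0 CPM).

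The other members described outside the pathway did not pass the thresholds, and their signs were mixed. A second zinc transporter 2 gene (LOC113661609) with the same orthology entry had the opposite sign, with 4.55, 6.14 and 6.84 CPM in T_liver replicates 1, 2 and 3, against 3.82, 3.60 and 3.16 CPM in the C_liver replicates (log2 fold change 0.73). Ormdl1, a regulator of sphingolipid synthesis, had 74.9, 53.0 and 46.3 CPM in T_liver, against 35.6, 45.6 and 31.0 CPM in C_liver (0.63). In these 2 genes every T_liver library lay above every C_liver library. They are 3.85% of the 52 tested members described outside the pathway, against 5.96% of all tested genes. Mcts1, a factor of translation reinitiation, had 13.2, 15.1 and 9.48 CPM in T_liver, against 15.5, 17.3 and 44.3 CPM in C_liver. Its log2 fold change of -1.03 passed the fold change threshold but not the P threshold (edgeR's quasi-likelihood test, unadjusted P 0.0521, adjusted P 0.676), and it was -0.38 without C_liver replicate 3. DESeq2 called it as lower in T_liver (unadjusted P 0.0323). A pleckstrin homology domain gene (LOC113646381), which carries the orthology entry of hyou1, was called by DESeq2 on the 6 libraries, as higher in T_liver. By edgeR's quasi-likelihood test it was called only when T_liver replicate 2 or T_liver replicate 3 was left out. The log2 fold changes were then 1.72 and 1.71 (edgeR's quasi-likelihood test, unadjusted P 0.0482 and 0.0499). It had 54.3, 11.1 and 11.5 CPM in T_liver, against 5.44, 8.92 and 15.6 CPM in C_liver. Its groups overlapped, and T_liver replicate 1 alone stood above the rest. The golgin A7-like gene (LOC113660926), named for a Golgi protein, had 16.3, 7.16 and 12.6 CPM in T_liver, against 20.0, 21.8 and 21.8 CPM in C_liver (log2 fold change -0.82).

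Genes of the same biology outside the members gave a similar picture in part. A list of 15 further genes held genes tied to the unfolded protein response and the selenoprotein genes selenof, selenok and selenom. Of these, 13 were tested, and 4 were higher and 9 lower in T_liver. By edgeR's quasi-likelihood test 0 were DE genes, against 3.11% of all tested genes, and 0 had an unadjusted P under 0.05, against 6.64%. By DESeq2 0 were DE genes, against 4.52% of all tested genes. The cochaperone dnajc3 had 34.2, 11.7 and 4.76 CPM in T_liver replicates 1, 2 and 3, against 6.06, 9.29 and 39.1 CPM in the C_liver replicates, and the secreted factor manf had 22.9, 14.3 and 5.70 CPM, against 7.21, 5.82 and 29.6 CPM. In dnajc3 and manf C_liver replicate 3 was highest and T_liver replicate 1 next, as in 7 of the 13 genes, against 641 of all 11521 tested genes. Others had another order, and creb3l3, a membrane-bound transcription factor of the liver, had 147, 274 and 74.1 CPM in T_liver, against 138, 221 and 61.8 CPM in C_liver, where C_liver replicate 3 was the lowest library. The selection leaves out 66 pathway rows, and some of these, such as dnajc3, are also in the list above. Of the 66, 44 were tested. The only DE gene was dnajc14 (2.27%, against 1.49% of all tested genes called higher). It had 13.1, 10.4 and 16.1 CPM in T_liver, against 7.44, 7.86 and 3.26 CPM in C_liver (log2 fold change 1.09, edgeR's quasi-likelihood test, unadjusted P 0.0229, adjusted P 0.676).

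Marker sums stood beside the library order of BiP as follows. In the libraries where BiP was highest, C_liver replicate 3 (702 CPM), T_liver replicate 1 (286 CPM) and T_liver replicate 2 (155 CPM), exocrine pancreas markers summed to 417, 1172 and 366 CPM and red blood cell markers to 4402, 1122 and 2800 CPM. In T_liver replicate 3, with 51.8 CPM of BiP, the pancreas markers were at 910 CPM, above C_liver replicate 3. The part of cell makeup in the spread of the chaperones was not tested.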

How the data were processed

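Poly(A) RNA of liver was sequenced in 3 T_liver and 3 C_liver libraries. The authors removed invalid reads, aligned the rest with HISAT to the T. fulvidraco genome and deposited read counts per gene, which are not normalized, and FPKM values, with genes without a count listed at 0.0001. The submitters' processing notes list HISAT2 2.0, StringTie 1.3.0 and Bowtie 0.12.2, with no role. Their genome build entry is the mouse build mm8, which cannot be the build of these catfish scaffolds, so the build behind the coordinates is not known here. No source used here gives the counting tool or the use of strand, and the labels and the paper name different Illumina instruments. Coordinates are as deposited.

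All genes at a mean FPKM of 1 or more were tested on the counts with edgeR 4.0.16 (R 4.3.3; TMM scaling, quasi-likelihood F test, no covariate, all 6 libraries), with Benjamini-Hochberg adjustment over 11521 genes. Standard errors were derived from the F statistics. CPM are TMM-scaled. Alternatives used DESeq2 1.42.0, limma 3.58.1 on log2(FPKM + 1) or log2(FPKM + 0.1), other scalings, filters and member rules, the replicate number as a block, and each library left out.

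The members and gene lists were chosen with earlier results of these data known. Roles were given from symbols and descriptions. Named genes are the DE members, the 8 with the highest mean FPKM, the 5 largest changes in each direction without overlap, and a core list of chaperones, isomerases, sensors, ERAD, translocon and coat genes. Other genes named, such as ddost, lman1 and vcp, were chosen after their values were seen. Marker lists were hepatocyte, exocrine pancreas, red blood cell, intestine epithelium (35.1 to 48.6 CPM in T_liver, 46.8 to 66.4 CPM in C_liver), macrophage (10.3 to 15.2 CPM and 10.9 to 24.7 CPM) and stellate cell (310.1 to 388.6 CPM and 299.3 to 580.4 CPM). Intervals for counting error were not needed, since every comparison rests on the spread between libraries. A member of the named genes is not reported here. No sequence of a member was used here.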

Additional observations from a re-analysis of the deposited data

How the results depend on the processing

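The number of DE members at a higher level in T_liver, 0 on the 6 libraries, was 2 with no filter on low values (verrucotoxin genes LOC113663841 and LOC113663842, with counts in 2 T_liver libraries only), 1 with DESeq2 (LOC113646381), 1 with the heat shock and dnaJ rows kept (dnajc14), and 0 to 3 with 1 library left out. The number at a lower level, 3, was 0 with a mean FPKM of at least 5, a filter that left capn10 and nicalin untested. With limma on log2(FPKM + 1) and with the adjusted P it was also 0. Over the members named for the pathway or for a relative by family it was 1 (an alternative chosen after seeing the data). With 1 library left out it was 1 (without C_liver replicate 3) to 7 (without C_liver replicate 1). The median log2 fold change ranged from -0.11 to 0.087 and the share of positive values from 37.6% to 60.2% with 1 library left out. The number of DE genes over all tested genes was 774 with no filter, 175 with a mean FPKM of at least 5, 190 with limma on log2(FPKM + 1), 643 without T_liver replicate 2 and 628 without C_liver replicate 2, against 358. Of 37 named members, 20 kept their sign under every alternative run. The other 17 changed it under at least 1. With limma on log2(FPKM + 1) and on log2(FPKM + 0.1), BiP (LOC113636550) was at 0.10 and 0.11, sel1l (LOC113643346) at 0.084 and 0.12, and ssr2 at -0.0046 and -0.0047. Syvn1 was at 0.0072 with DESeq2 size factors, 0.0047 with total counts, 0.032 with a mean FPKM of at least 5 and 0.0073 with DESeq2. Xbp1 was at 0.018 with a mean FPKM of at least 5, and LOC113640740 at -0.00023 with no filter. With 1 library left out, log2 fold changes ranged from -1.04 to 0.68 for hsp90b1, -0.52 to 0.91 for hyou1, -1.37 to 1.70 for BiP, -0.11 to 0.39 for ern1 (LOC113639477), -0.37 to 0.55 for LOC113640740, -0.50 to 0.13 for LOC113642878, -0.62 to 1.01 for sel1l, -1.13 to 0.24 for LOC113645299, -0.10 to 0.31 for LOC113655795, -0.078 to 0.27 for ssr4 (LOC113658247), -0.48 to 0.064 for pdia3, -0.91 to 0.70 for pdia6, -0.044 to 0.40 for sec61b, -0.13 to 0.27 for ssr2, -0.48 to 0.36 for ssr3, -0.28 to 0.25 for syvn1 and -0.69 to 0.40 for xbp1. The cause of these changes was not tested.

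With the replicate number as a block, BiP was at 0.59 and sel1l at 0.24, the same 3 members were called, and no call of a named member changed. Deviations of libraries with the same number correlated at -0.09, 0.04 and -0.13, which gave no sign of pairing by number. With 3 libraries per group, each centred on its group mean, these correlations cannot settle whether the numbers pair the samples. With 3 libraries per group the common biological coefficient of variation was 0.426, and several differences larger than their standard error were not called. A difference of that size is not in itself a sign of an effect, and the power of the test was not examined.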

Other observations

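Members outside the named genes also differed between single libraries. Ckap4, a sheet-shaping membrane protein of the rough ER, had 10.5, 2.35 and 1.27 CPM in T_liver replicates 1, 2 and 3, against 2.07, 2.86 and 22.6 CPM in the C_liver replicates, a range of 17.8 times between the highest and the lowest library. Calpain-8-like (LOC113649826) had 3.92, 22.1 and 1.54 CPM in T_liver, against 4.63, 3.84 and 7.58 CPM in C_liver, and stood out in T_liver replicate 2. The single tested verrucotoxin gene (LOC113663828) had 0.939, 21.0 and 23.7 CPM in T_liver, against 20.9, 17.1 and 3.79 CPM in C_liver, the largest range among the tested members (25.2 times). Its low libraries, T_liver replicate 1 and C_liver replicate 3, were those where the secretory genes were mostly high. The choice of these genes was made with their values seen.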
